A study of Mus musculus with 2 samples.

Results

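Enzymes that conjugate, hydrolyse, reduce or oxygenate foreign and endogenous small molecules were examined in 2 islet graft samples. The labels give hyperglycemic recipient status for 1 sample and normoglycemic for the other. The genes were taken by symbol, as all probe sets with exactly 1 gene symbol in the platform annotation that named a glutathione S-transferase (Gst of the alpha, kappa, mu, omega, pi, theta or zeta class, or Mgst), a UDP-glycosyltransferase (Ugt), a sulfotransferase (Sult), a carboxylesterase (Ces), an aldo-keto reductase (Akr) or a flavin-containing monooxygenase (Fmo). This gave 115 probe sets for 79 of the 18193 genes represented, and a gene with several probe sets was described by its brightest one, judged by the mean of the log2 signals. Of the 79 genes, 53 were measured, which means that their mean log2 signal over both arrays reached the mean of the 2 array medians, a geometric mean signal of 87.1. Over all genes, 11421 were measured.

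Transferases of these families attach glutathione, a sugar acid or sulfate to a molecule, which makes it more soluble and ready for export. Carboxylesterases and aldo-keto reductases open or reduce ester and carbonyl groups, and flavin-containing monooxygenases oxidise nitrogen and sulfur. Liver is best known for these reactions, and the proximal tubule of the kidney, which surrounds grafts placed under the renal capsule, is also rich in them.

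In both samples the islets came from wild type C57BL/6 donors, 50 per recipient, were placed below the capsule of the left kidney, and were taken at 6 hours. The study names male mice as its Akita recipients, and its text does not give the sex of the wild type recipient. The hyperglycemic recipient was a heterozygous Akita mouse, which carries a missense mutation of Ins2 in all its own cells, and the normoglycemic recipient was a wild type C57BL/6 mouse. Genotype and blood glucose therefore differed together and cannot be told apart, while the sources used here do not state how many mice each sample holds. The protocol of the study places grafting of 50 islets without insulin at 10 to 12 weeks of age for Akita recipients. It gives no separate age for the recipients of the array samples. There was 1 array per condition, without replicates, so no difference could be tested, and all ratios below are of the signal in the hyperglycemic over that in the normoglycemic graft, on these 2 arrays only.

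Kidney tissue was part of both samples. All 15 measured markers of the proximal tubule were within 2-fold (median log2 ratio -0.02), and their signals summed to 537212 in the hyperglycemic and 486028 in the normoglycemic graft. All 14 measured macrophage markers were over 2-fold higher in the hyperglycemic graft (median log2 ratio 2.70), with sums over the 16 markers on the array of 93174 and 11552. The 11 islet endocrine markers had a median log2 ratio of 0.70, and the 8 measured endothelial markers one of -0.62. The 11 measured markers of other nephron segments had a median of -0.57, with 2 over 2-fold lower and 0 higher. The 6 measured mast cell markers had one of 2.71. For mesothelium and fibroblasts, the 5 measured markers had a median of -0.95, with 2 over 2-fold lower and 0 higher. For pancreatic acinar and duct cells, the 6 measured of 10 markers on the array had a median of -0.34, with 1 over 2-fold in each direction. Cela2a, Cpa1, Cpb1 and Ctrb1 of this list were below the medians in both grafts and are not part of that median. Over all measured genes, 4.82% were over 2-fold higher and 2.71% lower. Of 7 hepatocyte markers on the array, Alb (492 in the hyperglycemic and 393 in the normoglycemic graft), Ttr (19247 and 16614), Fgb (167 and 248) and Cyp2e1 (49006 and 37313) were measured and within 2-fold. Apoa1, Ahsg and Tat were below the medians in both grafts. Which cells gave the signals of the measured ones was not tested. In such bulk samples, fewer cells of a type and less RNA per cell cannot be told apart, and the part of these differences in any result below was not tested. As a sign of RNA quality, signal near the 3' end was divided by that near the 5' end of control transcripts, which gave 3.99 in the hyperglycemic and 3.54 in the normoglycemic graft for Actb, and 1.76 and 1.30 for Gapdh.

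Most of the measured detoxification genes had similar signals in both grafts. Of 53 genes, 45 were within 2-fold and 37 within 1.5-fold (69.8%, against 77.6% of all measured genes), 24 were higher and 29 lower in the hyperglycemic graft, and their median log2 ratio was -0.09, against -0.06 for all measured genes. Ratios beyond 2-fold were found for 8 genes (15.1%, against 7.53% of all measured genes). Akr1c12, Ces4a, Fmo4 and Gsta2 were the 4 higher ones (7.55%, against 4.82%), and Ces1g, Ces2b, Ces2g and Gstm7 the 4 lower ones (7.55%, against 2.71%). Of these 8 genes, 7 were among the 22 members with a mean signal under 1024 (31.8%, against 10.5% of all genes at such signals), and only Gsta2 was among the 31 brighter ones (3.23%, against 2.41%). When each signal had to reach the median of its array, 91.5 for the hyperglycemic and 82.9 for the normoglycemic graft, 48 members remained, of which Gsta2 was over 2-fold higher (background 3.53%) and Ces1g, Ces2b and Ces2g over 2-fold lower (background 1.89%). These shares describe 2 arrays, and no test was made of whether the members differ from other genes.

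**Figure D1:**
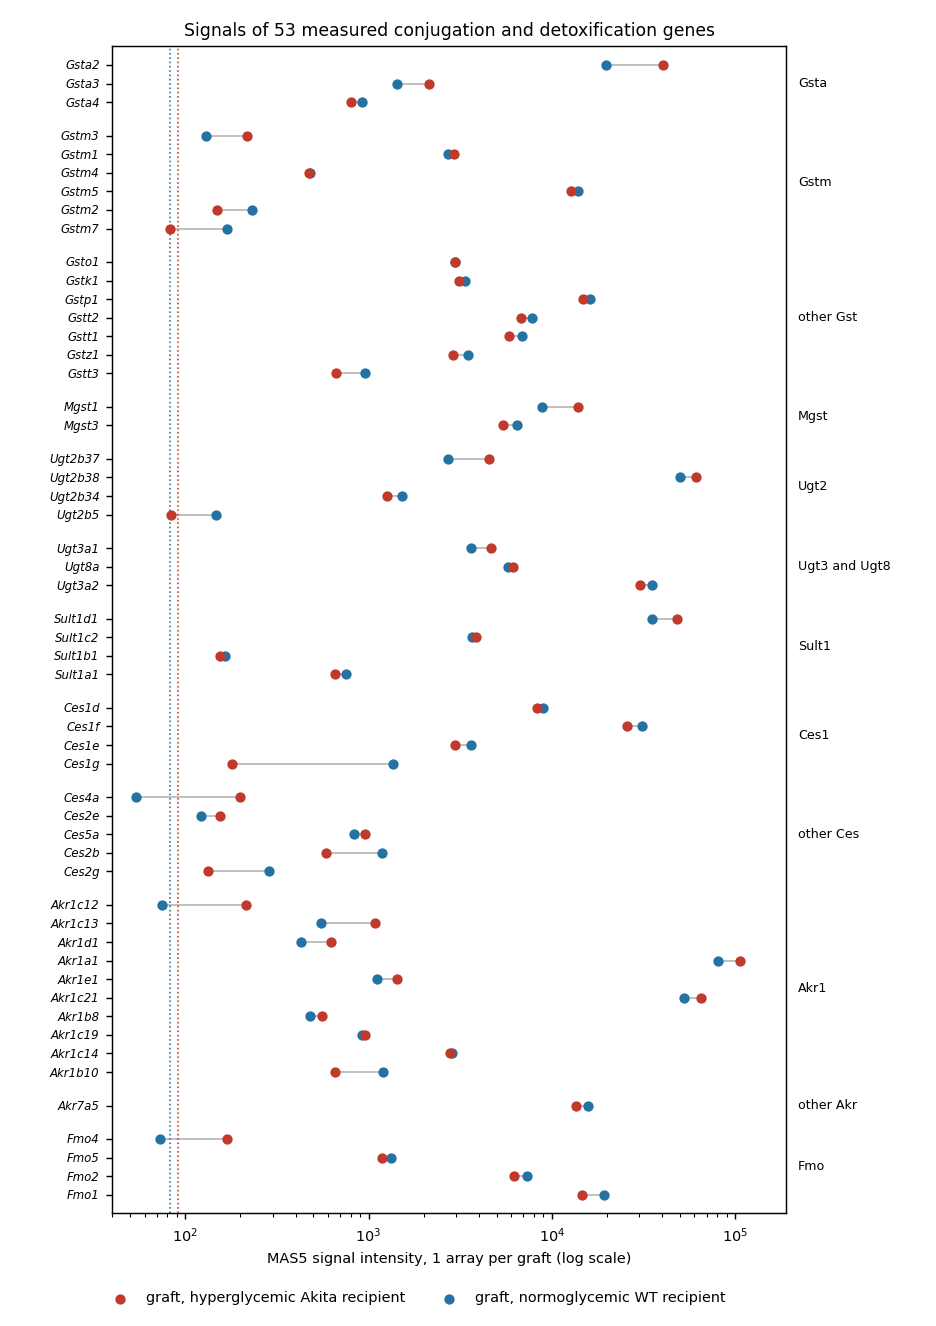
MAS5 signal intensity (x axis, log scale) of the 53 measured genes (y axis, grouped by family) in the graft from the hyperglycemic (red) and the normoglycemic (blue) recipient, with 1 array each. Dotted lines mark the array medians (91.5 and 82.9), and the longest grey line is that of Ces1g, at 180 and 1354.

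The scatter of the ratios depended on the signal. Where the 2 brightest probe sets of a gene were compared, over all genes with several, 1 SD of a ratio was 1.53-fold if the dimmer one had a mean signal of 64 to 256, 1.26-fold at 256 to 1024, 1.17-fold at 1024 to 4096 and 1.15-fold above that. This spread lies within the arrays and is not an error between mice.

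**Figure D2:**
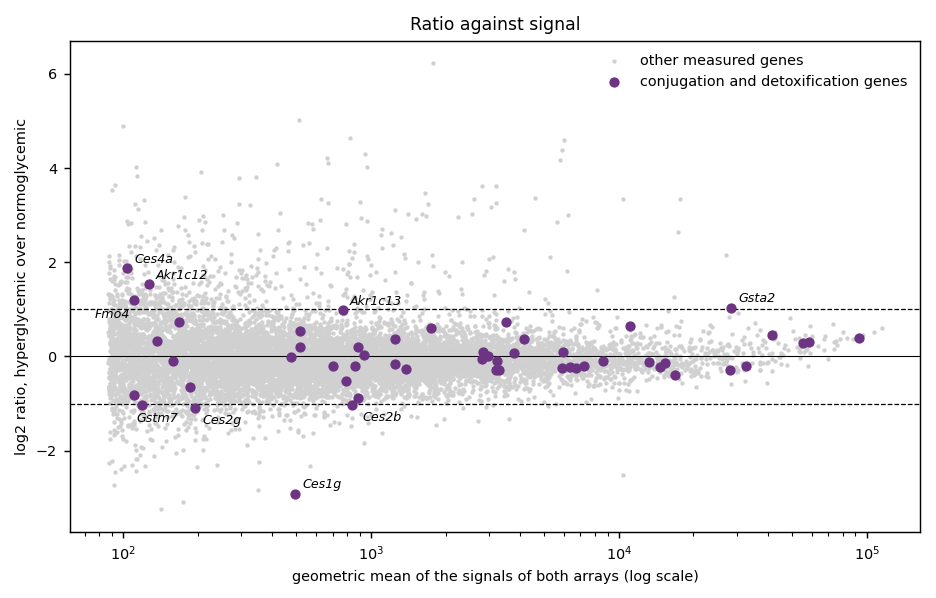
Log2 ratio of hyperglycemic over normoglycemic (y axis) against the geometric mean signal of both arrays (x axis, log scale), 1 point per measured gene, with the 53 detoxification genes in purple and dashed lines at 2-fold. Ces1g lies at -2.91, far below the other members, and Gsta2, at 1.04, is the member past 2-fold with a signal over 1024.

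Carboxylesterases showed the lowest ratio among the measured members. These enzymes of the endoplasmic reticulum cleave esters, among them drugs and stored lipids. Ces1g, known as a lipid-handling esterase of liver, had a signal of 180 in the hyperglycemic and 1354 in the normoglycemic graft, 7.51-fold lower (log2 ratio -2.91). Both signals were above the array medians, and among the 10816 genes with 2 such signals it had the lowest ratio of all. It stayed over 2-fold lower under all 13 alternatives tried (log2 ratio -2.93 to -1.75). The value rests on 1 probe set.

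The other measured esterases of the Ces1 family had ratios closer to 1. Ces1f had signals of 25549 and 30994 in the hyperglycemic and the normoglycemic graft (1.21-fold lower). Ces1e, which retains beta-glucuronidase in the endoplasmic reticulum, had 2959 and 3626 (1.23-fold lower). Ces1d, a triacylglycerol hydrolase, had 8314 and 8934 (1.07-fold lower), but 6032 and 10147 on its second probe set (1.68-fold lower). All 4 measured Ces1 genes were thus lower in the hyperglycemic graft, with a median log2 ratio of -0.29, against -0.06 for all measured genes. Ces1c, a secreted esterase of plasma in the mouse, was below both medians (12.4 and 64.6), and Ces1h reached a median only in the hyperglycemic graft (148 against 12.8, at least 1.79-fold higher with both signals raised to the medians).

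The Ces2 family split. Ces2b had a signal of 585 in the hyperglycemic and 1189 in the normoglycemic graft (2.03-fold lower), and Ces2g had 133 and 285 (2.14-fold lower, but -0.71 on the log2 scale with the array median added and 0 with a floor at percentile 75), whereas Ces2e had 154 and 122 (1.26-fold higher). Ces2b lay just beyond 2-fold, and its log2 ratio was -0.97 after centring of the arrays, -0.99 after quantile normalization, -0.97 after loess correction and -0.91 with the array median added. Ces4a was at least 2.39-fold higher, with a signal of 198 in the hyperglycemic graft against 54.0, below the median, in the normoglycemic one, and its log2 ratio was 0 with the floor at percentile 75. Ces5a had 952 and 830 on its brightest probe set (1.15-fold higher), but a second one gave 7.79 and 123. The ratio of Ces5a thus depended on the probe set, and the median log2 ratio of 0.20 over the 5 measured genes outside Ces1 was -1.02 with the median of all probe sets of each gene. Ces2a and Ces2f were below both medians.

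The alpha class of glutathione S-transferases, cytosolic enzymes that also reduce lipid peroxides, had the bright member with the largest ratio. Gsta2 had a signal of 40598 in the hyperglycemic and 19766 in the normoglycemic graft (2.05-fold higher, log2 ratio 1.04). Quantile normalization lowered its log2 ratio to 0.90 and loess correction to 0.97, both under 2-fold. Gsta3 had 2147 and 1421 (1.51-fold higher), and its second probe set gave nearly the same ratio (1.52-fold). Gsta4, which conjugates the lipid peroxidation product 4-hydroxynonenal, had 802 and 926 (1.15-fold lower). Thus 2 of the 3 alpha class genes were higher and 1 lower in the hyperglycemic graft. The probe set of Gsta2 is of a type that can bind several transcripts. Alpha class transferases are close relatives, and whether transcripts of other genes add to its value was not tested.

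The promoter windows of Gsta2 and Ces1g are shown because of their ratios on the signals as deposited. Among members with both signals above the medians, these 2 genes had the highest and the lowest ratio. They run from 250 bases before to 50 after the start in RefSeq (GRCm38.p6), at chr9:78347096-78347395 on the minus strand for Gsta2 and at chr8:93337160-93337459 on the minus strand for Ces1g. Capitals mark matches, on either strand, of the xenobiotic response element core (GCGTG) and of the TATA box letters (TATAAA). Both TATA matches are on the opposite strand (TTTATA), and that of Gsta2 lies at the upstream end of its window. Matches were not chosen by position.
Gsta2: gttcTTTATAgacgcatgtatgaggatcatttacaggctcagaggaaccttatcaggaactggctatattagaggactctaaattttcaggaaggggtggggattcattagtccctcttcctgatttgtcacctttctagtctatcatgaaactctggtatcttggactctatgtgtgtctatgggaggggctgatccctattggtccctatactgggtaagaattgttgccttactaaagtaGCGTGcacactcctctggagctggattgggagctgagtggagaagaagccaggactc
Ces1g: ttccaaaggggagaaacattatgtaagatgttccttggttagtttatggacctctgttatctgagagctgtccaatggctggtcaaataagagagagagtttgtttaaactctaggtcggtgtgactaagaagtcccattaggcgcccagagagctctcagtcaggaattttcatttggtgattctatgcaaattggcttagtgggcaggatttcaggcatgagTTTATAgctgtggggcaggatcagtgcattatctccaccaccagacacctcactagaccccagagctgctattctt

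RefSeq windows were found for 69 of the 79 genes, 46 of them measured. The core GCGTG was found in 13 of the 69 genes and in 32.4% of all 32851 windows, and the TATA box in 14 genes and 13.6% of all windows. An antioxidant response element (TGACNNNGC), the binding motif of NRF2, was found in 6 genes and 12.4% of all windows, and an HNF1 half-site (GTTAAT) in 8 genes and 7.1%. Both were searched on both strands too, and neither was in the windows of Gsta2 or Ces1g. Sequence farther from the starts was not searched. Some genes have several windows, so the counts over genes and over windows are not on the same footing, and a match describes letters only.

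The mu class varied more among its dim than among its bright genes. Gstm5 had signals of 12725 and 13818 in the hyperglycemic and the normoglycemic graft (1.09-fold lower), and Gstm1, a major transferase of liver, had 2920 and 2728 (1.07-fold higher). Gstm4 was at 476 in both. Gstm3 had 216 and 130 (1.66-fold higher), and Gstm2 had 149 and 232 (1.56-fold lower). Gstm7 was below the median in the hyperglycemic graft, with 82.7 against 170 (at least 1.86-fold lower with low signals raised to the medians, 2.05-fold as deposited), while its second probe set gave 151 and 89.6 (1.69-fold higher). The direction of Gstm7 thus depended on the probe set, and its log2 ratio was -0.98 after centring and -0.54 with the array median added. Over the 6 measured mu class genes the median log2 ratio was -0.06, and Gstm6 was below both medians.

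The remaining cytosolic transferases were close to equal in both grafts. Of 7 measured genes, all were within 1.5-fold (against 77.6% of all measured genes) and 6 were slightly lower in the hyperglycemic graft. Their median log2 ratio was -0.20, against -0.06 for all measured genes. Gstp1, of the pi class, had signals of 14713 and 16155 in the hyperglycemic and the normoglycemic graft (1.10-fold lower). Gstt2 had 6764 and 7767 (1.15-fold lower), and Gstt3 had 661 and 951, the lowest ratio of the 7 (1.44-fold lower). Gstt1, Gstt2 and Gstt3 are neighbours in the genome and all 3 were lower. Gstz1, which isomerises maleylacetoacetate in tyrosine breakdown, had 2891 and 3508 (1.21-fold lower), and Gstk1, of mitochondria and peroxisomes, 3124 and 3346 (1.07-fold lower). Gsto1, which reduces dehydroascorbate, was at 2965 and 2963. The membrane-bound transferases went either way. Mgst1 had 13951 and 8863 (1.57-fold higher), and Mgst3 had 5415 and 6421 (1.19-fold lower). Both ratios were beyond 1 SD of the probe set spread at such signals (1.15-fold), as were those of other bright members such as Fmo1. The second probe set of Mgst1, at 64.0 and 22.1, was below both medians, as was Mgst2. Gstp3, Gsto2 and Gstt4 were also below both medians, with signals of 90.2 or less in the hyperglycemic and 18.7 or less in the normoglycemic graft.

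UDP-glycosyltransferases of the Ugt2 family attach glucuronic acid to steroids, bile acids and drugs. Ugt2b38 had a signal of 61018 in the hyperglycemic and 50008 in the normoglycemic graft (1.22-fold higher). Ugt2b37 had 4537 and 2718, the highest ratio of the Ugt genes (1.67-fold higher). Ugt2b34 had 1263 and 1517 (1.20-fold lower), or 644 and 1255 on its second probe set (1.95-fold lower), and Ugt2b5 had 83.6, below the median, and 147 (at least 1.61-fold lower). Of 4 measured Ugt2 genes, 2 were thus higher and 2 lower in the hyperglycemic graft, all within 2-fold, and Ugt2a3, Ugt2b1, Ugt2b35 and Ugt2b36 were not measured. Ugt3a2, whose human counterpart transfers glucose and xylose, had 30374 and 35116 (1.16-fold lower), and Ugt3a1, whose human counterpart transfers N-acetylglucosamine, had 4679 and 3637 (1.29-fold higher). The second probe set of Ugt3a1 gave a log2 ratio of -0.20, so its direction was not settled by the arrays. Ugt8a, which makes galactosylceramide, the precursor of sulfatides of myelin and kidney, had 6157 and 5747 (1.07-fold higher).

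Sulfotransferases of the Sult1 family, which sulfate phenols, catecholamines and thyroid hormone, were all within 1.5-fold where measured. Sult1d1, a catecholamine sulfotransferase that is present in mouse kidney, had signals of 48294 and 35345 in the hyperglycemic and the normoglycemic graft (1.37-fold higher), and 15971 and 14218 on its second probe set (1.12-fold higher). Sult1c2 had 3865 and 3690 (1.05-fold higher). Sult1a1, a phenol sulfotransferase, had 657 and 750 (1.14-fold lower), and Sult1b1, which acts on thyroid hormone, 155 and 164 (1.06-fold lower). Sult1e1, the estrogen sulfotransferase, and Sult1c1 were below both medians. None of the 7 genes of the other Sult families was measured, namely Sult2a2 and Sult2a8 of the steroid and bile acid sulfotransferases, Sult2b1, which sulfates cholesterol, Sult4a1, known from brain, Sult3a1, Sult5a1 and Sult6b1. Their signals were at most 57.2 in the hyperglycemic and 92.8 in the normoglycemic graft.

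Aldo-keto reductases of the Akr1 family use NADPH to reduce aldehydes and keto groups of sugars and steroids. Of 10 measured genes, 8 were higher in the hyperglycemic graft, 1 of them over 2-fold (against 4.82% of all measured genes). The median log2 ratio of all measured genes was -0.06. That of the Akr1 genes was 0.34, the highest among families with at least 4 measured genes. Quantile normalization lowered this median to 0.16, below that of the Ces genes outside Ces1 (0.21), so the rank depended on the setting. Akr1a1, which in mice takes part in the synthesis of vitamin C, had signals of 106945 and 80913 in the hyperglycemic and the normoglycemic graft (1.32-fold higher), but its 3 other probe sets gave log2 ratios of -0.02 to 0.10. Akr1c21, a 17-alpha-hydroxysteroid dehydrogenase of mouse kidney, had 64967 and 52462 (1.24-fold higher). Akr1d1, the steroid 5-beta-reductase of bile acid synthesis, had 622 and 428 (1.45-fold higher), and a log2 ratio of -0.01 on its second probe set. Akr1e1, a 1,5-anhydrofructose reductase, had 1424 and 1105 (1.29-fold higher), and 1.66-fold on its second probe set. Akr1b8 had 555 and 480 (1.16-fold higher), whereas Akr1b10 had 654 and 1197, the lowest ratio of the 10 (1.83-fold lower). Dimmer probe sets of Akr1b10 went either way, with 96.6 and 56.7 on one and 28.2 and 94.0 on another.

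Akr1c12 and Akr1c13, which lie in the Akr1c gene cluster, had the highest ratios of the measured aldo-keto reductases. Akr1c13 had a signal of 1081 in the hyperglycemic and 548 in the normoglycemic graft (1.97-fold higher, just under the limit). Akr1c12 had 215 and 74.4, at least 2.60-fold higher, since the signal of the normoglycemic graft was below the median, but its log2 ratio was 0.96 with the array median added and 0 with the floor at percentile 75. The other measured genes of the cluster had log2 ratios between -0.05 and 0.37. Akr1c14, a 3-alpha-hydroxysteroid dehydrogenase, was at 2769 and 2859 (1.03-fold lower), and Akr1c19 at 952 and 925 (1.03-fold higher). Of the 9 cluster genes, 6 were measured and 5 of these were higher. Akr1c18, which inactivates progesterone, reached the median only in the normoglycemic graft (11.9 against 107, at least 1.16-fold lower), and Akr1c6 and Akr1c20 were below both medians, as was Akr1cl outside the cluster. The window around the start of Akr1c12, at chr13:4279350-4279649 on the minus strand, and that of Akr1c13, at chr13:4190937-4191236 on the plus strand (GRCm38.p6, RefSeq), are shown together because the pair had the highest ratios of the measured cluster genes and near-identical sequence. Over 297 aligned positions they were 95.6% identical, with 12 substitutions and 1 gap, and capitals mark the bases that differ.
Akr1c12: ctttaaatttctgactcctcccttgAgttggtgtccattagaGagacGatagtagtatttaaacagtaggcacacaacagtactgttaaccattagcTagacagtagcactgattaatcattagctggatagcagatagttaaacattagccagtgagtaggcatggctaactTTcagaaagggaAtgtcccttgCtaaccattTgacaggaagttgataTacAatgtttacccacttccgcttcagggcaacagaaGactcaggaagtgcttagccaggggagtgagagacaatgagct
Akr1c13: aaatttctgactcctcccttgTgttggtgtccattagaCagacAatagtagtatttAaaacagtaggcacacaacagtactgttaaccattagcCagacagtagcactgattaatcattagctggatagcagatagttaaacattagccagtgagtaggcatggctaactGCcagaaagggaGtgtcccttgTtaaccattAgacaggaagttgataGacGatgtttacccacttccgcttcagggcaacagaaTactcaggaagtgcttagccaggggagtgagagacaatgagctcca

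The identity is that of the windows around the starts, and sequences of transcripts or probes were not compared. Whether a probe set named for one of the pair also bound transcripts of the other was not tested. The ratios of Akr1c12 and Akr1c13 may therefore not be independent of each other. Akr7a5, which reduces aldehydes from aflatoxin and succinate semialdehyde, had signals of 13559 and 15742 in the hyperglycemic and the normoglycemic graft (1.16-fold lower). It was the 1 aldo-keto reductase outside the Akr1 family.

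Flavin-containing monooxygenases were slightly lower in the hyperglycemic graft where their signals were high. Fmo1, the form of mouse kidney and liver, had signals of 14650 and 19218 in the hyperglycemic and the normoglycemic graft (1.31-fold lower). Fmo2, known from lung, had 6184 and 7278 (1.18-fold lower), and Fmo5 had 1183 and 1330 (1.12-fold lower). Fmo4 was the exception, with 168 and 72.7, at least 2.03-fold higher since the signal of the normoglycemic graft was below the median. Its log2 ratio was 0.74 with the array median added and 0 with the floor at percentile 75, so it was not past 2-fold under these settings. The 5 measured probe sets of Fmo2 ranged in log2 ratio from -0.57 to 1.12, the highest on its dimmest probe set (254 and 117). The median log2 ratio of the 4 genes was -0.20.

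Probe sets of the same gene gave a check within the arrays. For the 15 members with at least 2 measured probe sets, the log2 ratios ranged over less than 1 unit in 13, and Gstm7 and Fmo2 were the exceptions (1.79 and 1.69). In 6 of the 15 genes all probe sets lay on the same side of 0. Ces1g, Gsta2, Ces2b, Ces2g, Ces4a, Akr1c12 and Fmo4 had a single probe set each, so 7 of the 8 ratios past 2-fold could not be checked in this way, and Gstm7 had probe sets in opposite directions.

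**Figure D3:**
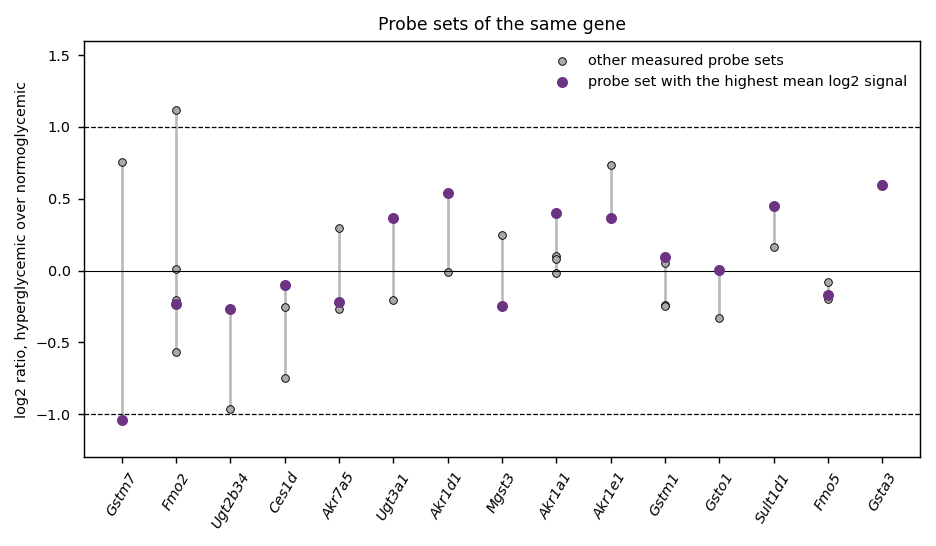
Log2 ratio of hyperglycemic over normoglycemic (y axis) for each measured probe set of the 15 members with at least 2 of them (x axis, ordered by range), with the brightest probe set of each gene in purple and dashed lines at 2-fold. Gstm7 and Fmo2 span 1.79 and 1.69 log2 units, and Gsta3 spans 0.0053.

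Of the 26 genes that were not measured, 22 had both signals below the array medians. The signals of the 26 ran from 1.88 to 148 in the hyperglycemic and from 2.44 to 107 in the normoglycemic graft. Only 4 of them reached a median on 1 array, namely Ces1h in the hyperglycemic and Akr1c18, Sult5a1 and Ugt2a3 in the normoglycemic graft. No fold is given for the others, since at mean signals of 16 to 64 the spread between probe sets was already 2.90-fold.

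Genes that supply or regulate these reactions were also mostly within 2-fold between the grafts. So were most genes, since only 7.53% of all measured genes were past 2-fold in either direction. Of 15 measured genes of glutathione synthesis and recycling, all were within 2-fold (median log2 ratio -0.09), such as Gpx3, a secreted glutathione peroxidase made by kidney, at 82170 in the hyperglycemic and 66119 in the normoglycemic graft. All 12 measured genes that supply UDP-glucuronic acid or PAPS, the sulfate donor, were within 2-fold (median -0.03), such as Ugp2, which makes UDP-glucose, at 8335 and 8468. The same held for all 17 measured carriers that export conjugates or take up organic ions (median -0.03), such as Slc22a12, the urate carrier of the proximal tubule, at 27022 and 26016. Of 12 measured NRF2 targets outside the families, 0 were over 2-fold in either direction (median -0.21), such as Gclm, a subunit of the rate-limiting enzyme of glutathione synthesis, at 7704 and 10485. Some of these genes stand in more than one list.

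Genes past 2-fold were found in 3 of these lists and among the cytochrome P450 genes, against 4.82% of all measured genes higher and 2.71% lower. Of 10 measured genes of methyl, acetyl and glycine conjugation (median 0.08), 2 were over 2-fold higher (20%) and 0 lower. Bhmt, which methylates homocysteine, had signals of 1941 and 560 in the hyperglycemic and the normoglycemic graft (3.46-fold higher), and Nnmt, which methylates nicotinamide, had 182 and 77.9 (at least 2.19-fold higher). Glyat, which conjugates acids with glycine, had 38185 and 35678. Of 22 measured hydrolases and reductases outside the families (median -0.02), 3 were over 2-fold higher (13.6%, against 4.82% of all measured genes) and 0 lower (against 2.71%). Aldh1a7 had 7012 and 2017 (3.48-fold higher), and Aldh1a1, which makes retinoic acid, had 1159 and 339 (3.42-fold higher). Both are closely related aldehyde dehydrogenases and their probe sets may share transcripts. Xdh, which makes uric acid, had 739 and 315 (2.35-fold higher), whereas Aldh9a1 had 26212 and 24226. Among 14 measured regulators (median -0.21), 0 were over 2-fold higher and 1 lower (7.14%). Nr1i2, which encodes the xenobiotic receptor PXR, was at least 2.40-fold lower (82.5, below the median, against 220). Hnf4a, a regulator of tubule and liver genes, had 11145 and 13606. The 34 measured of 73 cytochrome P450 genes had a median log2 ratio of 0.07, with 1 over 2-fold higher (2.94%, against 4.82% of all measured genes) and 3 over 2-fold lower (8.82%, against 2.71%). Their difference from the conjugating families was not tested.

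**Figure D4:**
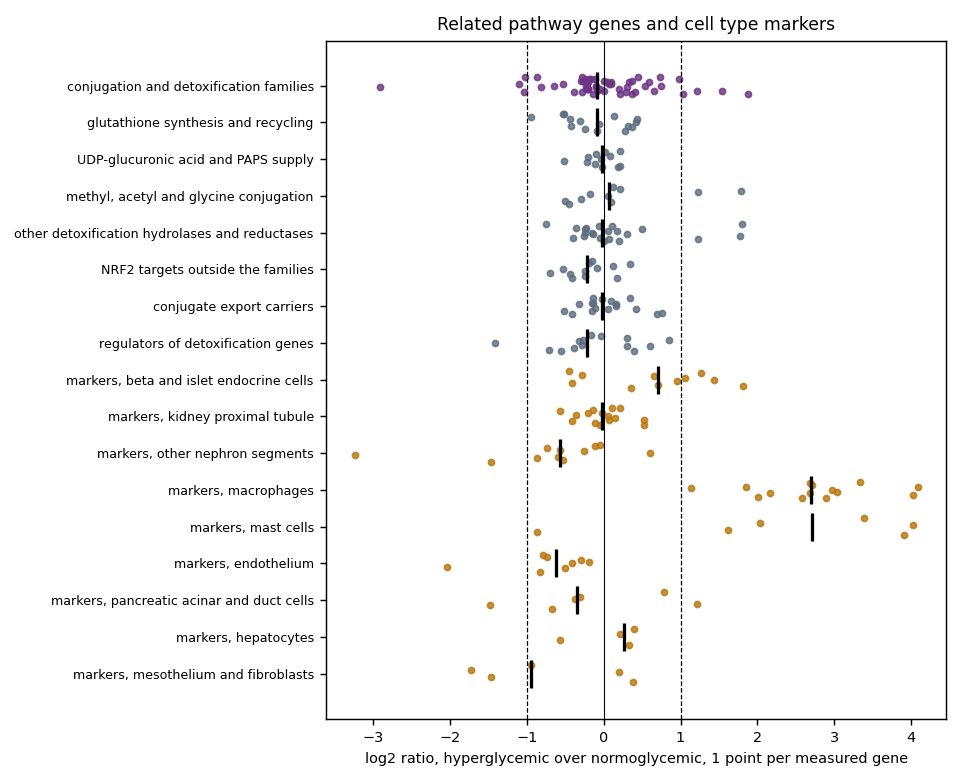
Log2 ratio of hyperglycemic over normoglycemic (x axis), 1 point per measured gene, for the detoxification families (purple), related pathway lists (grey) and cell type markers (orange), with black bars at the medians and dashed lines at 2-fold. The medians of the families (-0.09) and the proximal tubule markers (-0.02) lie near 0, that of the macrophage markers at 2.70.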

How the data were processed

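RNA from the 2 grafts was measured on 1 GeneChip MOE430 2.0 array each. The authors deposited 1 linear signal intensity per probe set, computed with MAS5 according to the submitters' processing notes, for 45101 probe sets, 64 of which were controls. Version and scaling of MAS5 were not stated. The number of arrays limits the precision. Columns were matched to the recipients through the labels. Of the probe sets other than controls, 34945 had 1 gene symbol, 932 several and 9160 none. All 79 member genes were found in RefSeq (GRCm38.p6) by identifier and 0 symbols differed. Signals were compared as deposited, without further scaling or a test. Ratios with 1 signal below its array median are given as bounds, with both signals raised to the medians. The families and gene lists were chosen with earlier results of these data known. Every member could be named. Of other lists, genes over 2-fold (at most 3 per direction) and the brightest gene were named, and cytochrome P450 genes were only counted. Neighbours were at most 5 protein-coding genes apart in RefSeq order. The counting of ratios was tested on simulated data. Alternatives comprised centring, quantile normalization, loess (span 0.3, 3 iterations), raising low signals to a floor (percentile 25, 50 or 75 of the array), adding the array median, other filters, other choices of probe set and a limit of 1.5-fold. Where a floor replaced both signals of a gene, its log2 ratio was set to 0, a choice made after the values had been seen. Python 3.11.15, numpy 2.4.6, pandas 2.3.3, statsmodels 0.14.6 and matplotlib 3.10.9 were used.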

Additional observations from a re-analysis of the deposited data

How the results depend on the processing

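The median log2 ratio of the measured members stayed between -0.12 and 0 under 13 alternatives, and those of the Gstm, other Gst, Sult1, Ces1 and Fmo groups moved by less than 0.1 wherever 4 genes were left. The counts past 2-fold, 4 higher and 4 lower, varied with the setting. They were 5 and 2 after median centring, 1 and 2 with a floor at percentile 75, 2 and 1 with the array median added, 1 and 3 with both signals required at the medians, 11 and 15 without a filter, 1 and 2 with a filter at percentile 75, and 9 and 7 at 1.5-fold. Over all genes, 551 were higher and 309 lower, against 166 and 50 with the floor at percentile 75, 309 and 97 with the array median added, 758 and 504 with the median of probe sets, 948 and 695 if either signal sufficed, 382 and 204 if both were required, 2467 and 2137 without a filter, 170 and 69 with the filter at percentile 75, and 1243 and 1320 at 1.5-fold. The Ugt2 median (0.01) was -0.11 after quantile normalization, 0.14 with the floor at percentile 75 and -0.16 with the median of probe sets. It was -0.26 without multi-transcript probe sets (those of types that can bind several transcripts), -0.26 if either signal sufficed and -0.22 without a filter. The Akr1 median (0.34) was 0.16 after quantile normalization. The median of the Ces genes outside Ces1 (0.20) was 0 with the floor at percentile 75 and turned negative with the median of probe sets (-1.02), without multi-transcript probe sets (-0.35) and with both signals required (-0.41). The cause was not tested. Of the ratios of the 8 genes past 2-fold, 76 stayed past the limit, 18 did not and 0 turned in direction, and Ces1g passed under 13 of 13. Gsta2 was not measured without multi-transcript probe sets. No paired analysis was possible because each condition had 1 array. With 1 array per condition, no spread between mice was known, and signals near the array medians had the least support.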

Other observations

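Probe sets annotated with several gene symbols were left out above, since their signal cannot be given to 1 gene. Of 7 such probe sets that list at least 1 gene of these families, 5 were measured. All 5 were higher in the hyperglycemic graft, by 1.18- to 2.17-fold. The 3 for the UDP-glucuronosyltransferases of the Ugt1a locus, whose transcripts share their 3' exons, measured 50813 against 40769, 22552 against 18280 and 10162 against 8581, each as hyperglycemic against normoglycemic. The 1 for alpha class glutathione S-transferases had 21168 and 11553 (1.83-fold higher), and the 1 for Akr1c reductases had 1503 and 692 (2.17-fold higher).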
